A study of Mus musculus with 8 samples.

Results

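The genes described here encode the proteins of the cytosolic ribosome. They were taken from the deposited array table by name: gene symbols of the form Rpl or Rps with a number and at most one of the letters a, l or x, together with Rplp0, Rplp1, Rplp2 and Rpsa. Only probe sets carrying 1 gene symbol were used, and where a gene had several, the one brightest on average over the 8 arrays stood for it. This gave 64 genes of 22180 named genes, from 104 probe sets, with 40 genes of the large (60S-type) subunit and 24 of the small (40S-type) subunit. Another 12 symbols of the same form, such as Rpl10, Rpl23 and Rps2, occurred only on probe sets shared by several symbols and have no value here.

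The tissue was medial prefrontal cortex (mPFC) from mice that carried a Cre-dependent ribosome tag for translating ribosome affinity purification (TRAP). The canine adenovirus CAV2-Cre was given in NAC or in VTA, so that mPFC cells sending axons to the injected site made ribosomes bearing green fluorescent protein (GFP). The 4 groups of 2 arrays were the VTA pull-down and the NAC pull-down, purified with the reagent GFP-trap, and the VTA input and the NAC input, which were not purified. All 4 groups carried the tag and received the virus. The inputs hold RNA from all cells of the dissected tissue, although their labels repeat the cell type given for the pull-downs. The labels give no ages and do not say whether arrays of 1 group stem from different mice, so the p-values here reflect only how far these samples spread, which may be technical.

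A eukaryotic ribosome joins a small subunit, which decodes the mRNA, to a large subunit, which forms peptide bonds. Each is built from ribosomal RNA and from many small basic proteins whose genes are transcribed at high rates in nearly every cell. Most of these mRNAs begin with a cytosine followed by a run of pyrimidines, a terminal oligopyrimidine (TOP) tract through which the kinase mTOR and the RNA-binding protein LARP1 set how actively they are translated. Rpl10a encodes the protein of the large subunit's L1 stalk, next to the site where spent transfer RNA leaves, and TRAP lines of mice commonly carry GFP fused to Rpl10a. The labels do not name the tagged protein here, and a probe set cannot separate transcripts of a tagged copy from those of the endogenous gene.

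The start sites are shown because the TOP tract is the sequence feature that most of these mRNAs are known to share. The RefSeq promoter table, built on GRCm38.p6, held windows for 49 of the 64 genes. The stretches below run from 60 bases before to 30 bases from the annotated start, 5′ to 3′ on the gene's strand, and capitals mark the longest pyrimidine run that touches the positions from 10 before to 20 after the start. Rpl10a is shown with its 2 annotated starts. Rpl28, Rps18 and Rps10 were higher in the pull-downs, and Rpl15 and Rps6 did not pass the test. These 5 genes were chosen after their values were seen. The windows lie at chr17:28328411-28328500 (+) and chr17:28328505-28328594 (+) for Rpl10a, chr7:4792905-4792994 (+) for Rpl28, chr17:33955636-33955725 (-) for Rps18, chr17:27635215-27635304 (-) for Rps10, chr14:18270957-18271046 (-) for Rpl15 and chr4:86857338-86857427 (-) for Rps6.
Rpl10a first start: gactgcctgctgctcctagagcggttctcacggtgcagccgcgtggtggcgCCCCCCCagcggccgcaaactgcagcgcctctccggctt
Rpl10a second start: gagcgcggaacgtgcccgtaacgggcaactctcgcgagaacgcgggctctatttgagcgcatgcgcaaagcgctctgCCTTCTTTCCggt
Rpl28: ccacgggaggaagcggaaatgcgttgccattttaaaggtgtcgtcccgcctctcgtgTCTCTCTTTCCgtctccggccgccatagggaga
Rps18: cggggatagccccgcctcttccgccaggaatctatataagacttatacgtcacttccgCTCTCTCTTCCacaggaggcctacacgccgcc
Rps10: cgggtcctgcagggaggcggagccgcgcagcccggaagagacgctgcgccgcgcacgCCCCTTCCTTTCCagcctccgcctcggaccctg
Rpl15: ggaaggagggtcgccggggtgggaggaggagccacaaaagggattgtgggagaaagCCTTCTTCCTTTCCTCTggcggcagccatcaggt
Rps6: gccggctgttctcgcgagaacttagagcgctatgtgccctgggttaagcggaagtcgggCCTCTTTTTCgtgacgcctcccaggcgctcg

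In Rpl28, Rps18, Rps10, Rpl15 and Rps6 the run crosses the annotated start and holds 10 to 17 bases. Neither annotated start of Rpl10a opens with such a tract: the run of 7 bases at the first start begins 9 bases before it, and the run of 10 bases at the second begins at base 18 of the transcript.

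Of the 64 genes, 47 passed the filter on low values, which asked for a level over the array's own median of named genes on at least 2 of the 8 arrays. These were 28 large-subunit and 19 small-subunit genes. The other 17, among them Rplp2, Rpl5, Rpl6, Rpl11, Rps14, Rps15 and Rps16, were not tested. Their means over the 8 arrays were between 2.22 and 5.61 on the log2 scale, under array medians of 5.86 to 5.98. Rpl27a, with a mean of 6.01, and Rpl26, with 6.02, were the members closest above the filter, and Rpl5, with 5.61, was the closest below it. Of the 47 tested genes, 43 exceeded the median on all 8 arrays, and only Rpl26, Rpl27a, Rps10 and Rps29 did so on fewer.

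Where the probe sets sit bears on every value below. Probe set numbers on this array mostly follow the genome: 99.1% of 11662 tested genes with a known chromosome had at least 3 of the 10 nearest numbered named probe sets on their own chromosome. Only 26 of the 47 tested ribosomal protein genes (55.3%) did, and all 17 untested ones did. For 17 of the 21 tested genes whose brightest probe set had other neighbours, a further probe set of the same symbol stood among neighbours on the gene's chromosome, and 12 of those 17 were below the filter. Mammalian genomes hold many near-identical processed copies of ribosomal protein genes, and signal from a gene and from such copies cannot be told apart here. Rpl10a had a single probe set, among neighbours on its own chromosome.

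The comparison of pull-down with input, averaged over both injection sites, asked which ribosomal protein transcripts were enriched on the tagged ribosomes. With each gene read by its brightest probe set, Rpl10a stood apart from the other 46 genes, at 2.81 times its input level. The others shifted upward by less: 15 of them were higher in the pull-downs by 1.17 to 1.52 times, none was lower, and 31 did not pass the test. A further probe set of Rpl4, described below, had a log2 difference of 1.48, close to that of Rpl10a. The median difference of the 47 genes was 0.16 on the log2 scale, against -0.11 for all tested genes. Over all tested genes 9.6% were called higher and 32% lower in this comparison, by limma with a Benjamini-Hochberg adjusted p under 0.05.

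Rpl10a had deposited log2 levels of 11.94 and 11.95 in the VTA pull-downs and 12.05 and 12.11 in the NAC pull-downs, against 9.87 and 10.35 in the VTA inputs and 10.92 and 10.94 in the NAC inputs. Every pull-down lay above every input, and the 2 VTA inputs were the lowest arrays and the farthest apart. The averaged difference was 1.49 (SE 0.10, 95% interval 1.27 to 1.71, limma adjusted p = 4.12e-05). With each gene read by its brightest probe set, it was the highest averaged difference of all 11712 tested genes. It exceeded that of the next ribosomal protein gene by 0.89. Within each injection site, Rpl10a ranked 2 among all tested genes in VTA samples and 5 in NAC samples. The difference of Rpl10a minus the median difference of the other 46 genes was 1.33.

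**Figure D1:**
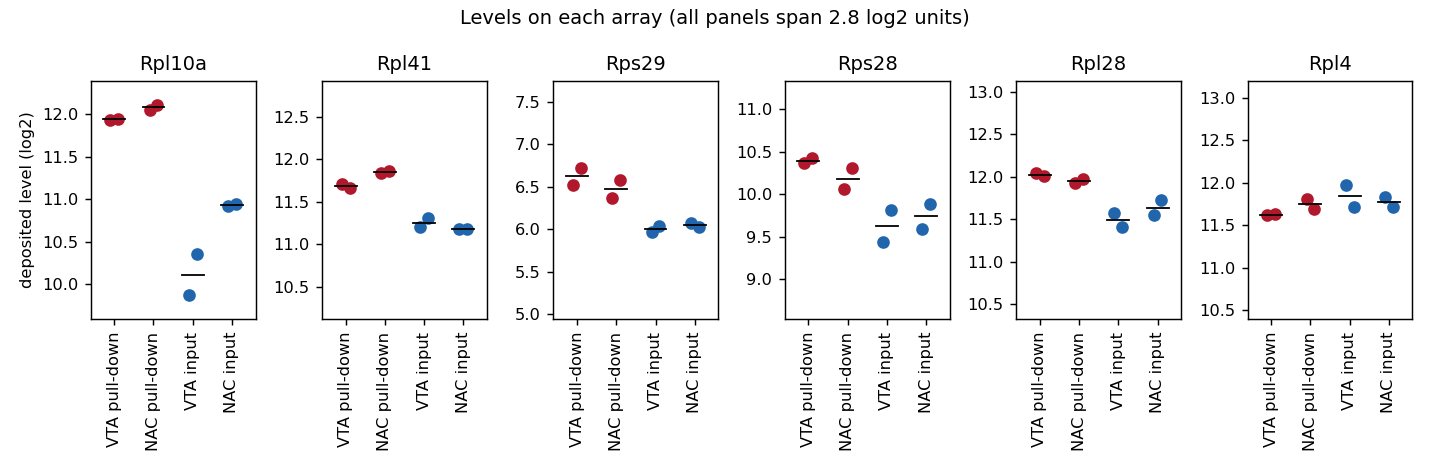
Deposited log2 levels on each array (points) with the mean of each group of 2 arrays (lines), pull-downs in red and inputs in blue, for Rpl10a and 5 other ribosomal protein genes. Rpl10a shows the widest gap between pull-downs and inputs, Rpl41, Rps29, Rps28 and Rpl28 show smaller gaps without overlap, and the pull-downs and inputs of Rpl4 overlap.

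Among the large-subunit genes, Rpl41 followed Rpl10a. It encodes a very short, strongly basic protein. Its log2 levels were 11.70 and 11.66 in the VTA pull-downs and 11.84 and 11.86 in the NAC pull-downs, against 11.20 and 11.30 in the VTA inputs and 11.18 and 11.17 in the NAC inputs. The pull-downs did not overlap the inputs, and the difference was 0.55 (SE 0.06, limma adjusted p = 0.000409). Rpl28 had 12.04 and 12.01 in the VTA pull-downs and 11.93 and 11.98 in the NAC pull-downs, against 11.58 and 11.41 in the VTA inputs and 11.55 and 11.72 in the NAC inputs. It was again higher on every pull-down array, with a difference of 0.42 (SE 0.07, limma adjusted p = 0.00211). Rpl23a, whose protein lies at the mouth of the exit tunnel, rose by 0.41 (SE 0.08). In all, 8 of the 28 large-subunit genes (28.6%) were higher, beside 9.6% of all tested genes, with a median over the 28 of 0.15. The lowest values in the subunit were -0.14 for Rpl32 and -0.12 for Rpl4, neither of which passed the test.

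Among the small-subunit genes, Rps28 had the widest difference. Its log2 levels were 10.37 and 10.42 in the VTA pull-downs and 10.07 and 10.31 in the NAC pull-downs, against 9.44 and 9.82 in the VTA inputs and 9.59 and 9.89 in the NAC inputs. All pull-downs exceeded all inputs, and the difference was 0.61 (SE 0.10, limma adjusted p = 0.00218). Rps28 encodes a small protein near the mRNA exit of the small subunit. Rps29, a zinc-binding protein of the small subunit's head, had 6.52 and 6.72 in the VTA pull-downs and 6.36 and 6.58 in the NAC pull-downs, against 5.96 and 6.04 in the VTA inputs and 6.07 and 6.03 in the NAC inputs. Its input levels lay close to the array median, where the filter falls, and its difference was 0.52 (SE 0.08, limma adjusted p = 0.00124). Rps18 had 7.59 and 7.09 in the VTA pull-downs and 7.10 and 7.24 in the NAC pull-downs, against 6.47 and 6.85 in the VTA inputs and 6.65 and 6.82 in the NAC inputs, with a difference of 0.56 (SE 0.12, limma adjusted p = 0.00613). Rps26, another protein at the mRNA exit, rose by 0.41 (SE 0.09). Of the 19 small-subunit genes, 8 (42.1%) were higher, beside 9.6% of all tested genes, and the median over the 19 was 0.21.

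The subunits differed little as groups. The median of the large-subunit genes minus that of the small-subunit genes was -0.06 and ranged from -0.12 to -0.0009 when each array was left out in turn. Across arrays, the median deviation of the small-subunit genes from their own means lay between 0.08 and 0.14 on the pull-downs and between -0.19 and -0.03 on the inputs. The large-subunit genes without Rpl10a lay between 0.06 and 0.10 on the pull-downs and between -0.15 and -0.03 on the inputs. The deviation of all tested genes went the other way, between -0.11 and 0.0001 on the pull-downs and between 0.01 and 0.09 on the inputs. Against these shifts, Rpl10a itself deviated by 0.67 to 0.85 on the pull-downs and by -1.40 to -0.32 on the inputs.

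**Figure D2:**
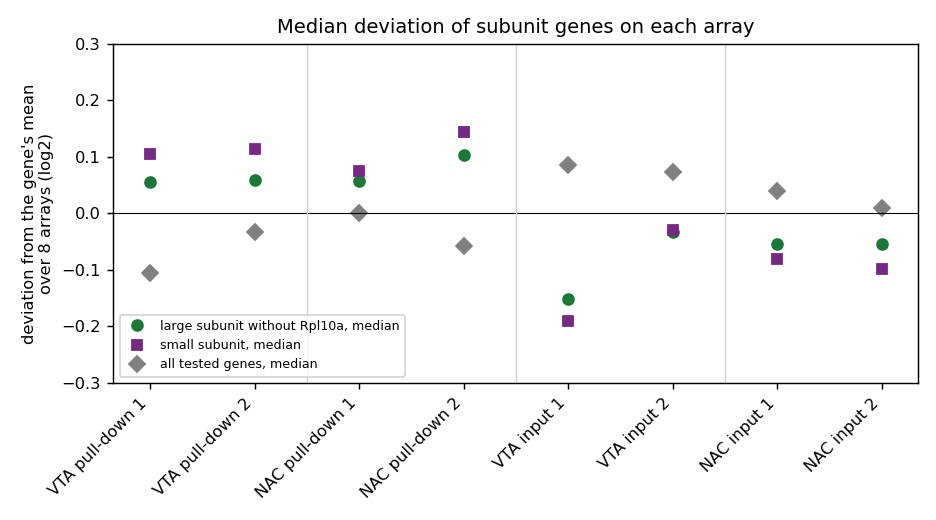
Median deviation of each gene from its mean over 8 arrays (y axis, log2) on each array, for large-subunit genes without Rpl10a, small-subunit genes and all tested genes. Both subunits lie above 0 on the 4 pull-downs and below 0 on the 4 inputs, lowest on the first VTA input, while all tested genes show the opposite order.

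The first VTA input stood apart for these genes. The 2 VTA inputs differed by a median of 0.19 per ribosomal protein gene, against 0.10 over all tested genes. The second array was the higher one for 33 of the 47, and for 45% of all tested genes. In the VTA pull-downs the same median gap was 0.09, and in the NAC pull-downs and NAC inputs it was 0.14 and 0.11. The second NAC pull-down was also the higher one for 31 of the 47, against 33.7% of all tested genes. Without the first VTA input, Rpl10a, Rpl41, Rps28, Rps29, Rpl28 and Rps18 were still called in the averaged comparison.

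Of the 47 genes, 17 had 4 pull-down arrays that all exceeded all 4 inputs, and none had the reverse, while 7.91% of all tested genes had the first pattern and 24.8% the second. The 17 were the 16 called genes and Rpl21. The 31 genes that did not pass the test had differences between -0.14 and 0.26, and 23 of them were positive.

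**Figure D3:**
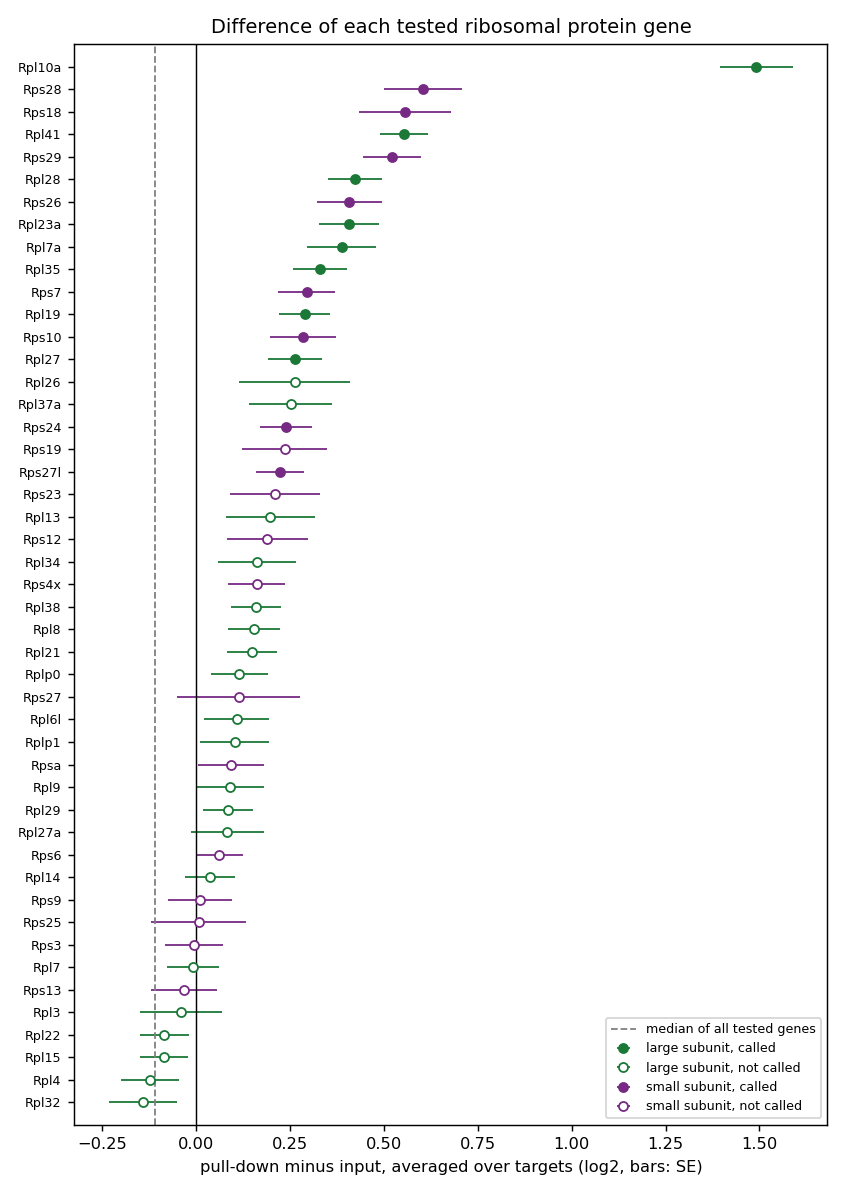
Pull-down minus input averaged over both injection sites (x axis, log2) for each of the 47 tested genes, with standard errors of the model as bars, coloured by subunit; filled points passed the test. Rpl10a lies at 1.49, the other called genes between 0.22 and 0.61, and the dashed line marks the median of all tested genes at -0.11.

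The scale between arrays affects how many genes are called. Centring each array on its median over the tested genes moved the median difference of all tested genes to 0.03, against -0.11 on the deposited scale. The ribosomal protein genes lay 0.27 above the median of all tested genes under either scale. Centring cannot change this gap, because it moves all genes of an array alike. With quantile normalization, which can change it, the gap was 0.25. With centred arrays 27 of the 47 were higher and none lower, beside 21.3% higher and 15% lower over all tested genes.

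Several members are linked to particular tissues or stresses, or have roles outside the body of the ribosome. Rps27l, a paralog of Rps27 that responds to p53, had 6.67 and 6.77 in the VTA pull-downs and 6.84 and 6.80 in the NAC pull-downs, against 6.53 and 6.57 in the VTA inputs and 6.57 and 6.52 in the NAC inputs. Its pull-downs all exceeded its inputs, and the difference was 0.22 (SE 0.06, limma adjusted p = 0.0198). Rpl3l, known from striated muscle, and Rpl10l, known from testis, were below the filter, as were Rps4l, Rpl32l and Rpl39l. Rps4x differed by 0.16 (SE 0.08) and Rpl6l by 0.11 (SE 0.09), and neither passed the test. The stalk proteins recruit translation factors to the large subunit. Rplp0 differed by 0.12 (SE 0.08) and Rplp1 by 0.10 (SE 0.09), and Rplp2 was not tested. Rpsa, a small-subunit protein that also serves as a laminin receptor, differed by 0.09 (SE 0.09). None of these 3 tested genes passed the test.

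Probe sets of the same gene did not always give the same answer. Of 12 genes with several distinct tested probe sets, 5 had like calls, 7 had one probe set called higher and another not called, and none had opposite calls. All 5 probe sets of Rpl41 were higher, by 0.49 to 0.80. Rpl4 had -0.12 by its brightest probe set and 1.48 (SE 0.30, limma adjusted p = 0.00517 over all probe sets) by its second. Rpl13 had 0.20 by its brightest probe set and 0.80 by one among its own chromosomal neighbours, and Rpl29 had 0.08 and 0.38 in the same order. Rps9 had 0.01 and 0.62 by its 2 probe sets. For Rpl19 the brightest probe set was called at 0.29 and the one among its own neighbours, at 0.19, was not. Rpl21 and Rps24 likewise had one called probe set each, at 0.20 and 0.24. Rps28 and Rps18 rested on probe sets away from their own neighbours, and their probe sets on the gene's chromosome averaged 3.95 and 4.31 and were not tested.

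**Figure D4:**
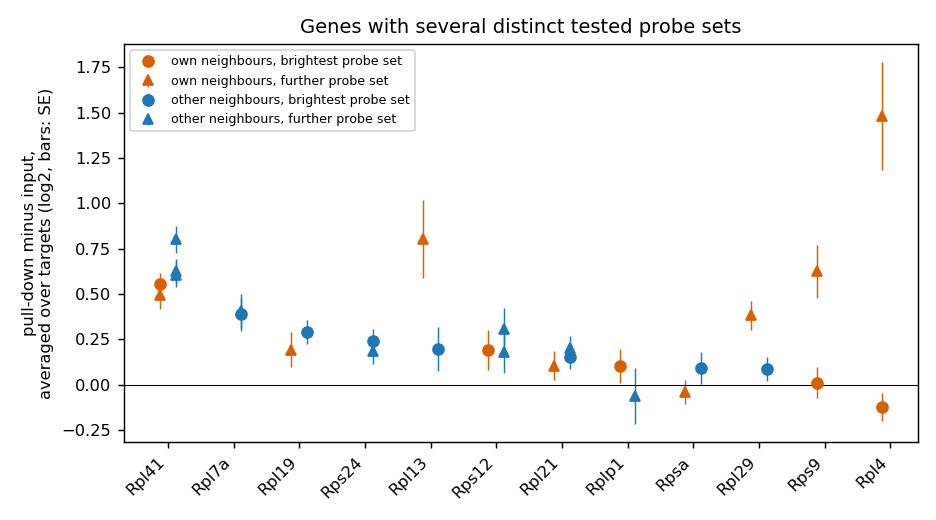
Pull-down minus input averaged over both injection sites (y axis, log2, bars are standard errors) for every distinct tested probe set of the 12 genes with more than one; circles are the brightest probe set, triangles further ones, and colour tells whether the numbered neighbours lie on the gene's chromosome. The probe sets of Rpl41 lie together between 0.49 and 0.80, while those of Rpl4 lie at -0.12 and 1.48.

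Taking for each gene only probe sets among neighbours on its own chromosome, a rule chosen after the values were seen, left 31 tested genes. Of these, 8 were higher and none lower, where 4835 of all tested genes were called in either direction. Rpl10a, Rpl41, Rps29 and Rps7 were called in the averaged comparison under all 17 other settings tried, including this one. Not all of these settings could change the call. For the averaged comparison, fitting only the groups compared repeats the main fit. Rpl10a, Rps29 and Rps7 have 1 probe set each, among their own neighbours, so the alternative probe set rules keep their values. Among the 26 genes whose brightest probe set lay among neighbours on its own chromosome, 6 (23.1%) were higher with a median of 0.16. Among the other 21, 10 (47.6%) were higher with a median of 0.24. Over all tested genes 9.6% were higher.

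The pull-down was then compared with the input within each injection site. In the VTA samples 13 of the 47 genes were higher and none lower, where 5.44% of all tested genes were higher and 25.9% lower. Rpl10a led with 1.83 (SE 0.14, limma adjusted p = 0.000258), or 3.56 times the VTA input, followed by Rps28 at 0.76, Rps18 at 0.67, Rps29 at 0.62, Rpl28 at 0.53, Rpl23a at 0.52, Rps23 at 0.50 and Rps26 at 0.44. The other 5 called genes lay between 0.30 and 0.43. Without the first VTA input, only Rpl10a and Rpl28 were called, and without the first VTA pull-down 8 were. The calls over all tested genes moved with them, to 415 and 1795 in those fits, against 3671 with all arrays.

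In the NAC samples 4 genes were higher and none lower, where 4.34% of all tested genes were higher and 8.01% lower. These were Rpl10a at 1.15 (SE 0.14, limma adjusted p = 0.00235), Rpl41 at 0.67 (SE 0.09), Rps29 at 0.42 (SE 0.11) and Rpl19 at 0.37 (SE 0.10). Only Rpl10a and Rpl41 were called when the second NAC pull-down or any 1 of the 4 inputs was left out, and in those fits 149 to 863 of all tested genes were called, against 1446 with all arrays. Rpl10a, Rpl41 and Rps29 passed the test at both injection sites, 10 genes passed only in VTA samples, 1 only in NAC samples and 33 in neither. These counts alone do not show that the sites differ.

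The difference between the sites was tested directly by subtracting the NAC difference between pull-down and input from the VTA one. No ribosomal protein gene passed limma's adjusted p of 0.05, where 0.00854% of all tested genes were higher and 0.0598% lower. At an unadjusted p under 0.05 there were 5, with Rpl10a (0.68, SE 0.20, 95% interval 0.24 to 1.11, adjusted p = 0.272), Rps23 (0.58), Rpsa (0.44) and Rplp1 (0.44) higher in VTA and Rpl7 (-0.38) lower. For Rpl10a the VTA inputs lay below the NAC inputs, at 10.11 ± 0.34 and 10.93 ± 0.02 (SD, n = 2 each), and the pull-downs lay close together, at 11.94 ± 0.01 for VTA and 12.08 ± 0.04 for NAC.

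**Figure D5:**
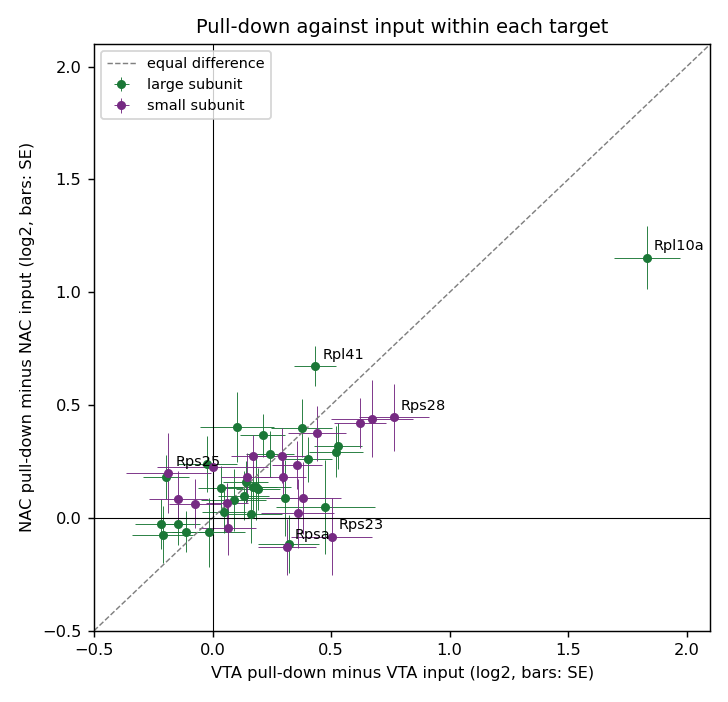
Pull-down minus input in the VTA samples (x axis, log2) against the same difference in the NAC samples (y axis, log2) for the 47 tested genes, with standard errors as bars and equal differences on the dashed line. Rpl10a lies at 1.83 and 1.15, Rpl41 at 0.43 and 0.67, and Rps23 at 0.50 and -0.08.

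Set against each other directly, the VTA and NAC pull-downs did not differ for any ribosomal protein gene by limma's adjusted p, where 0.418% of all tested genes were higher and 2.05% lower in VTA. At an unadjusted p under 0.05, Rps23 was higher by 0.45 (SE 0.17, adjusted p = 0.228) and Rpl19 lower by a log2 difference of -0.23 (SE 0.10, adjusted p = 0.272). The second of the NAC pull-downs decided the count: without it 1 gene was called. For Rpl10a the difference was -0.14 (SE 0.14, 95% interval -0.45 to 0.17, adjusted p = 0.668), although both VTA pull-downs lay below both NAC pull-downs.

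Between the inputs, Rpl10a was the 1 ribosomal protein gene called. It was lower in the VTA inputs, with a log2 difference of -0.82 (SE 0.14, limma adjusted p = 0.0133), and 0.12% of all tested genes were higher and 1.38% lower. Both VTA inputs lay below both NAC inputs. The call was lost without the first VTA input, with -0.58 and an adjusted p of 0.0785, and without the first or the second NAC input, with adjusted p of 0.106 and 0.145. It was also lost with no filter on low values, with an adjusted p of 0.0852. The next 2 genes at an unadjusted p under 0.05 were Rplp1, at -0.38 (adjusted p = 0.329), and Rpsa, at -0.28 (adjusted p = 0.451). Markers of other cells differed between the inputs too. Of 11 microglial markers, 6 were lower in the VTA inputs, with a list median of -0.54, and Fcrls was higher by 0.71. Of 11 astrocyte markers, Gfap was lower, with a difference of -0.84. The part of these markers in the Rpl10a difference was not tested. Between the pull-downs, 5 microglial markers and Gfap (-1.22) were likewise lower in VTA and Fcrls was higher by 0.71. Of all tested genes, 0.418% were higher and 2.05% lower in VTA there.

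In order of its group means, Rpl10a stood highest in NAC pull-downs, then VTA pull-downs, NAC inputs and VTA inputs, and the 2 pull-down groups were neighbours whose difference did not pass the test.

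Genes that share a function with the ribosomal proteins were read from lists in the comparison of pull-down with input averaged over both sites, where 9.6% of all tested genes were higher and 32% lower with a median of -0.11. Of 3 tested ribosomal genes with other names, 2 were higher, Fau at 0.27 (SE 0.08) and Rps3a1 at 0.25 (SE 0.08), which encode small-subunit proteins. Of 20 other translation genes whose mRNAs are known or thought to carry a TOP tract, 4 (20%) were higher and none lower, with a list median of 0.04. They were Tma7 at 1.30 (SE 0.15), Tpt1 at 0.85 (SE 0.20), Npm1 at 0.52 (SE 0.07) and Naca at 0.26 (SE 0.06). Tpt1 encodes a translationally controlled protein, and Naca a subunit of the complex that meets nascent chains at the ribosome.

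Of 41 tested ribosome biogenesis genes, 5 (12.2%) were higher and 13 (31.7%) lower in the averaged comparison, with a median of -0.06. Both shares were near those over all tested genes, so the counts are no result about the list. Its highest called genes were Polr1d (0.46), a subunit of RNA polymerases I and III, and Nhp2 (0.39), Rrp9 (0.29) and Nop10 (0.25), and its lowest were Heatr1 (-0.46), Nop56 (-0.39), Riok2 (-0.37) and Rrn3 (-0.35). Nhp2, Rrp9 and Nop10 on one side and Nop56 on the other all encode proteins of small nucleolar particles. Of 16 genes of mTOR signalling and TOP mRNA control, none was higher and 7 (43.8%) were lower in the averaged comparison, against 9.6% higher and 32% lower over all tested genes. They included Mtor (-0.34), Tsc1 (-0.33), Rps6kb2 (-0.31) and Mlst8 (-0.30), with a list median of -0.22. In VTA samples 7 of the 16 (43.8%) were lower, with a median of -0.25, beside 25.9% of all tested genes. In NAC samples 1 (6.25%) was lower, with a median of -0.04, beside 8.01% of all tested genes. These counts alone do not show that the sites differ for this list. In the direct difference of the sites, none of the 16 was called, where 0.0085% of all tested genes were higher and 0.0598% lower. The list median there was -0.10, beside -0.09 for all tested genes.

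Of 14 genes of ribosome rescue, recycling and dormancy, 3 (21.4%) were higher, 5 (35.7%) lower and 6 not called in the averaged comparison, with a median of -0.15. The share lower was near the 32% over all tested genes. Ccdc124, whose protein binds idle ribosomes, rose by 0.74 (SE 0.07), Habp4 by 0.22 and Serbp1 by 0.21. Ascc3 (-0.52), Ltn1 (-0.42), Abce1 (-0.38), which recycles ribosomes after termination, and Gtpbp1 (-0.31) were lower.

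Markers of other cells moved with the averaged comparison of pull-down with input, where 9.6% of all tested genes were higher and 32% lower. Astrocyte markers were lower in the pull-downs for 8 of 11 tested genes, oligodendrocyte markers for 10 of 11, microglial markers for 10 of 11, interneuron markers for 7 of 12 and endothelial markers for 6 of 9, and 1 endothelial gene was higher. Of 11 glutamatergic neuron markers, 3 (27.3%) were higher and 3 (27.3%) lower, and the share lower was near that over all tested genes. The log2 of the summed level of the astrocyte list was 12.84 to 12.98 in the pull-downs and 13.25 to 13.35 in the inputs. For oligodendrocyte markers it was 12.57 to 12.68 in the pull-downs and 13.10 to 13.27 in the inputs. For microglial markers it was 11.19 to 11.27 in the VTA pull-downs and 11.70 to 11.76 in the NAC pull-downs, against 11.69 to 11.73 in the VTA inputs and 12.30 to 12.33 in the NAC inputs, so VTA samples lay below NAC samples in both fractions. For interneuron markers it was 12.44 to 12.57 in the pull-downs and 12.61 to 12.72 in the inputs, and for endothelial markers 9.73 to 9.93 in the pull-downs and 10.01 to 10.14 in the inputs. Glutamatergic markers gave 14.06 to 14.10 in the pull-downs and 14.06 to 14.09 in the inputs. Over the 8 arrays the defining markers ranged from 7.98 to 8.92 for Aqp4, 7.7 to 8.29 for Cx3cr1, 9.22 to 9.4 for Mbp and 5.82 to 6.37 for Gad1. The lowest Gad1 level was under the array medians of 5.86 to 5.98. Even Rpl10l, the member known from testis and below the filter, averaged 2.22, so a level above 0 does not show that a cell type was present. Fewer cells of a type and less RNA per cell cannot be told apart in such bulk samples, and the part of these markers in the ribosomal protein differences was not tested.

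The promoters were also read for features that the choice of genes did not use. Of the 49 genes with a window, 11 (22.4%) had an annotated start at C followed by at least 4 pyrimidines, as did 3.0% of 27025 genes in the table. These 27025 genes were not limited to genes that passed the filter on low values. A run of at least 8 pyrimidines near the start was present in 53.1% of the 49 and in 19.2% of all genes. In windows from 250 bases before to 50 after the start, read on both strands, CCGGAA, a motif that ETS factors bind, occurred in 57.1% of the 49 and in 16.7% of all genes. ATGGCG, the core of YY1 sites, occurred in 34.7% of the 49 and in 10.2% of all genes. TATAAA occurred in 10.2% of the 49 and in 15.7% of all genes, and GGGCGG in 51.0% of the 49 and in 38.2% of all genes.

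These features are descriptions of letters, and higher genes were found with and without them. Of the 9 tested genes with a TOP tract exactly at the annotated start, 4 were higher in the pull-downs, with a median of 0.16. Of the 28 tested genes with a window and no tract at that base, 10 were higher, with a median of 0.20. A tract beginning a few bases from the annotated start counts as absent here, so these 28 genes are not shown to lack one. Rpl15 and Rps6, whose printed starts carry long tracts, had differences of -0.09 and 0.06. Rpl10a, with no tract opening either annotated start, had 1.49, but it has a run of at least 8 pyrimidines near its second start. With such a run 10 of 22 tested genes were higher, with a median of 0.19, and without it 4 of 15, with 0.21. With CCGGAA 10 of 22 were higher, with a median of 0.23, and without it 4 of 15, with 0.19. Over all tested genes 9.6% were higher. The part of these features in the differences was not tested.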

How the data were processed

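RNA of 8 mouse mPFC samples was measured on Affymetrix arrays. The deposited values are log2 levels per probe set and were left unchanged. The submitters' processing notes name Transcriptome Analysis Console; for its version and settings, the sources used here give nothing. Over all 41345 probe sets the array medians were 5.08 to 5.22. Probe sets were named through the supplied platform annotation, and 23521 had 1 symbol, 1814 several and 16010 none. A linear model with 4 group means was fitted to all 8 arrays and 11712 genes with limma 3.58.1 in R 4.3.3 (lmFit and eBayes, 4 residual degrees of freedom, prior 6.07). Tests were two-sided, with Benjamini-Hochberg adjustment over the 11712 genes and a threshold of 0.05. Differences are on the log2 scale and errors are standard errors of the model. The number of arrays limits the precision.

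The genes named in each comparison are Rpl10a, the 8 called members with the largest difference in each direction, paralogs, stalk genes, Rpsa, members whose probe sets disagree or that lie next to the filter, and up to 4 called genes per direction of each other list. The members and lists were chosen with earlier results of these data known. Alternatives were the filter, scaling, probe set rule, moderation, samples fitted, a replicate block and leaving out each array. Label numbers were checked as pairs: deviations of same-numbered arrays correlated at 0.30, -0.02, -0.13 and 0.22, so the main fits have no block.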

Additional observations from a re-analysis of the deposited data

How the results depend on the processing

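No result reversed. Over all results and settings, 206 values were labelled the same, 19 weaker, 6 stronger and 8 moved. Some of the 206 could not change. In the averaged comparison and the difference of the sites, fitting only the groups compared repeats the main fit. Centring cannot move the large minus small subunit median or Rpl10a minus the median of the other members. Rpl10a has 1 probe set, so its differences stay the same under other probe set rules. Counts of called genes were labelled the same when of similar size, even where other genes were called. With the mean of probe sets 15 genes were called in the averaged comparison (4735), and 10 of the 16 main calls were among them. Other values were labelled the same when they stayed on the same side of their threshold or within the spread between replicates. Calls over all tested genes, given in brackets, moved too. In the averaged comparison 16 genes were called (4866). This became 27 with centred arrays (4251) and 8 of 31 with probe sets next to own neighbours (4835), and it was 21 with quantile normalization (4246). For VTA samples, against 13 (3671), the count was 6 without a filter (1907), 24 with centred arrays (2802, with 14.7% of all tested genes higher and 9.25% lower), 21 with a mean-variance trend (4092), of which 1 was lower, and 6 with probe sets next to own neighbours (3652). For NAC samples, against 4 (1446), it was 2 without a filter (105), 9 with centred arrays (1548) and 12 with the trend (2028). Between inputs it was 0 without a filter, where Rpl10a had -0.82 and an adjusted p of 0.0852. The large minus small subunit median, -0.06, was -0.11 with quantile normalization, -0.0365 with the mean of probe sets and -0.0045 with own neighbours. The cause of these changes was not tested.

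Leaving out each array in turn gave 12 to 18 called genes in the averaged comparison, 2 to 14 in VTA samples, 2 to 4 in NAC samples, 0 to 1 between pull-downs, 0 to 1 between inputs and 0 in the difference of the sites. The lone array of a group was then assumed to vary like the other groups. Rpl10a ranged over 1.37 to 1.61 averaged, 1.59 to 2.07 in VTA, 1.12 to 1.18 in NAC, -0.17 to -0.11 between pull-downs, -1.06 to -0.58 between inputs and 0.44 to 0.92 for the difference. The subunit median ranged from -0.12 to -0.0009, and Rpl10a minus the median of the other members from 1.25 to 1.42. The VTA count of 2 came without the first VTA input.

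Label numbers share no stated animal or day. Calls over all tested genes again stand in brackets. With the replicate block 18 genes were called in the averaged comparison (5088), 15 in VTA samples (3890) and 6 in NAC samples (1578). It gave 0 between pull-downs (301), 1 between inputs (177) and 0 in the difference (1). With the numbers crossed between the pull-downs, a pairing chosen after seeing the data, 0 were called between pull-downs (471).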
